A study of Homo sapiens with 3 samples.

Results

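Binding sites of p63 and ZNF148 were examined around the 8 genes that encode the main subunits of the transcription factor AP-1, namely FOS, FOSB, FOSL1, FOSL2, JUN, JUNB, JUND and ATF3. The members are ChIP-seq peaks whose summit, the base of highest signal, lay inside a gene's hg19 span or within 50 kb of it. They numbered 123 of the 61591 summits deposited, 25 of 21922 for p63 and 98 of 39669 for ZNF148. Summits that shared an interval were merged into a single peak, represented by the summit with the best q value, which left 24 p63 and 92 ZNF148 peaks near the genes, of 21520 and 37883 peaks on chromosomes 1 to 22 and X. The cells were FaDu, an established line from a pharyngeal squamous cell carcinoma, without treatment. The 3 samples were a p63 ChIP, a ZNF148 ChIP and an input without antibody, which had no peak list used here. The antibodies were against ΔNp63α (a p63 isoform typical of basal squamous cells) and against ZNF148. Both ChIP samples share the cell line, the medium and the absence of treatment, and differ in the antibody. There was 1 list per antibody, so no value has a replicate error and no p-value is given.

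AP-1 is a dimer of basic leucine zipper proteins. A JUN protein pairs with another JUN protein, with a FOS protein or with a relative such as ATF3. Dimers of JUN and FOS proteins bind a short palindrome, searched here as TGANTCA. Several of these genes are known as immediate early genes, whose transcription starts within minutes of a growth factor or stress signal, and in stratified epithelia AP-1 dimers are known regulators of keratinocyte growth and differentiation. p63, a relative of p53, maintains the basal layer of the same epithelia, while ZNF148 recognises GC-rich stretches through its zinc fingers. The series title raises the question of a joint action of p63 and ZNF148, and the AP-1 genes are a place where binding of both can be set side by side.

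ZNF148 peaks lay at the start of 7 of the 8 genes, though the one at FOSL2 was weak. The FOSL2 peak had a fold of 5.0 and a −log10 q of 4.12, below the stricter limit of 5 used as an alternative. A ZNF148 summit was within 1 kb of the 5′ end of FOS, FOSB, FOSL1, FOSL2, JUN, JUNB and JUND. There were 11 such peaks in all, and ATF3 had none there. The 5′ end of the span was taken as the start throughout. ATF3 has more than 1 known start, and those further inside its span were not counted. No p63 summit was within 1 kb of the 8 starts, a count of little weight, since 1.43% of all 2 kb tiles held a p63 summit, against 2.33% that held a ZNF148 summit. Within 5 kb, p63 had a summit at 4 of 8 starts (FOSL1, JUN, JUNB and JUND) and ZNF148 at 7 of 8. Among 10 kb tiles laid over the chromosomes, 6.75% held a p63 summit and 9.8% a ZNF148 summit. Most tiles hold no gene start, so these shares are no measure for other genes, whose hg19 starts were not analysed here. The spans are known to the nearest 1 kb, so a distance from a start carries an error of up to 0.5 kb.

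The promoters of 4 of the genes are shown for the contrast in ZNF148 fold at their starts: FOS, JUND and JUN had folds of 51.2, 42.6 and 37.4 there, and FOSL2 5.0. These 4 were chosen after the folds were seen. The sequences are RefSeq windows of build GRCh38.p14, from 250 bases before to 50 after the annotated start, 5′ to 3′ on the gene's strand. They were not placed against the hg19 peaks base by base, so a ZNF148 summit may lie outside the window shown. Capitals mark the AP-1 site TGANTCA, the cyclic AMP response element TGACGTCA, the CT-rich box CCTCCC and the GC box CCCCGCCC, on either strand. The windows are chr14:75278578-75278877 (plus strand) for FOS, chr19:18281573-18281872 (minus strand) for JUND, chr1:58783998-58784297 (minus strand) for JUN and chr2:28392608-28392907 (plus strand) for FOSL2.
FOS: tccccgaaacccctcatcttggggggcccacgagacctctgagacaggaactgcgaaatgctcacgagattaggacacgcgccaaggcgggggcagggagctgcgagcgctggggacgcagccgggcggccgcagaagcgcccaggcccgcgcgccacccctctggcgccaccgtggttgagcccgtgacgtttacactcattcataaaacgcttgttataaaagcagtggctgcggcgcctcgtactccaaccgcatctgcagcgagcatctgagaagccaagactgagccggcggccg
JUND: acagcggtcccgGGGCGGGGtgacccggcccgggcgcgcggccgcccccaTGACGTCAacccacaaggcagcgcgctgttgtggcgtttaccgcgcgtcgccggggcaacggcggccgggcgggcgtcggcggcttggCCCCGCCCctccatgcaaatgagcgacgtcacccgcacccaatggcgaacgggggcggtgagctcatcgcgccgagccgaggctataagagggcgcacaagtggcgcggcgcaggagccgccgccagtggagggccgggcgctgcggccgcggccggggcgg
JUN: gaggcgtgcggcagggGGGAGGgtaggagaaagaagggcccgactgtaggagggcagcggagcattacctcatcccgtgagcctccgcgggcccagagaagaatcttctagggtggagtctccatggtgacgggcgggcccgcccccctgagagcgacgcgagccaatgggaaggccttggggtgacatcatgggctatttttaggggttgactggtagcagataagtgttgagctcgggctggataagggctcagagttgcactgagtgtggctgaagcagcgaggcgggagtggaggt
FOSL2: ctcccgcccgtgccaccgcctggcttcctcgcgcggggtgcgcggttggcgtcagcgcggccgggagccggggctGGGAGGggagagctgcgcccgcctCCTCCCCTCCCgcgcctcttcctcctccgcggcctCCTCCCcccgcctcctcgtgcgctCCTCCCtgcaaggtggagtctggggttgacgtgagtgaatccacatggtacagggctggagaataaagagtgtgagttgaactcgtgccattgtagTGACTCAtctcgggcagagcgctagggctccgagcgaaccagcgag

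The letters searched were unevenly spread over these windows. The table held windows for 7 of the 8 genes, 8 windows in all with 2 for ATF3, and none was matched for FOSL1. CCTCCC occurred in 5 of the 8 windows, against 49.3% of all 35116 windows in the table. FOSL2 had 5 matches, 2 of them overlapping each other by their ends, and JUNB had 2. The FOS window held none of the motifs searched, and whether it covers the summit of the ZNF148 peak at the FOS start was not determined. CCCCGCCC occurred in the JUND window only, with 2 matches, against 22.8% of all windows. The same window held the only TGACGTCA, found in 1.85% of all windows. TGANTCA occurred in the FOSL2 window only, as TGACTCA, against 7.71% of all windows. The core of the p53 family site, CATG and CNNG on either side of 6 free bases, was found once, in the JUND window, where it overlapped a GC box, and in 9.7% of all windows. The 8 windows had a median GC content of 64.3%, against 58.7% over all windows. A match is a run of letters and not a measured site.

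**Figure D1:**
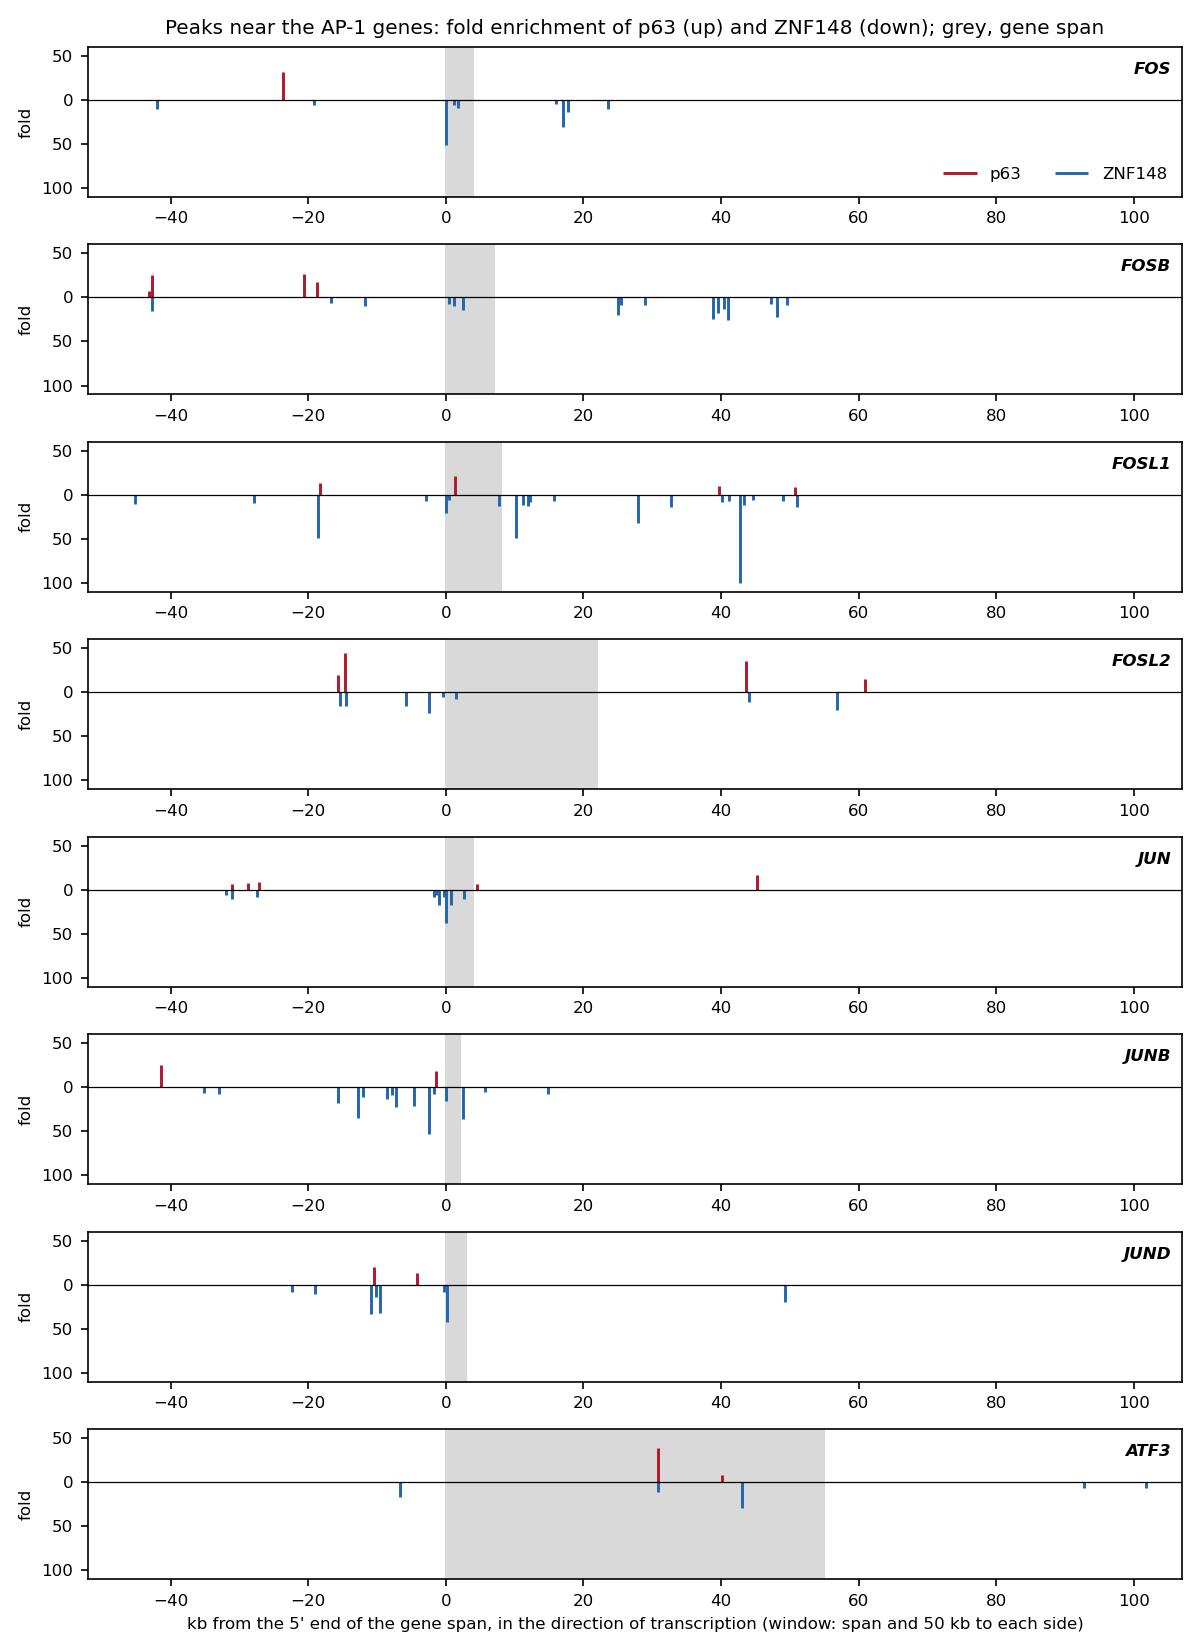
Each panel is 1 gene, with kb from the 5′ end of its span on the x axis and fold enrichment on the y axis, p63 upwards and ZNF148 downwards; grey marks the span. No p63 line stands within 1 kb of position 0 in any panel, and ZNF148 lines stand there in all panels but that of ATF3.

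FOS encodes the founding member of the FOS family and is the best known immediate early gene. A single p63 peak lay near it, on chromosome 14 at 75721282 to 75721576, 23.6 kb upstream of the start. That peak was strong, with a fold enrichment of 31.3 and rank 2610 of 21520 by q value, and no ZNF148 peak overlapped it. ZNF148 had 9 peaks near FOS. The strongest, at 75744784 to 75745340, covered the 5′ end of the span, had a fold of 51.2 and ranked 211 of 37883. A pair of weaker ZNF148 peaks with folds of 5.46 and 8.82 followed inside the gene, and a downstream group at 16.0 to 17.7 kb from the start reached a fold of 31.0. FOS thus had its p63 and its ZNF148 binding apart, with 4385 bp between the p63 summit and the nearest ZNF148 summit.

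FOSB encodes a close relative of FOS, and every p63 peak near it lay upstream. The 4 p63 peaks lay 18.7, 20.6, 42.7 and 43.2 kb before its start, with folds of 17.1, 26.5, 24.8 and 7.31. The one 42.7 kb upstream, on chromosome 19 at 45928190 to 45928457, overlapped a ZNF148 peak of fold 15.2 by 193 bp. ZNF148 had 16 peaks, 3 of them inside the gene with folds of 7.94, 10.0 and 14.4. Its strongest peak of the locus, with a fold of 25.6, lay 41.0 kb past the start, on chromosome 19 at 46011815 to 46012110. In RefSeq for GRCh38.p14, RTN2, PPM1N and VASP are the next protein-coding genes on that side of FOSB. Peaks were tied to the genes by distance alone.

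FOSL1 encodes FRA1, a FOS relative that lacks the transactivation domain of FOS, and had the most ZNF148 peaks of the 8 genes, 21. Besides ATF3 it was the only gene with a p63 peak inside its span. That p63 peak, on chromosome 11 at 65666566 to 65666893, lay 1.3 kb past the start and had a fold of 21.8. By q value it ranked 1899 of 21520, the best rank of the 24 p63 peaks. The nearest ZNF148 summit was 911 bp away and did not belong to an overlapping peak. By fold other p63 peaks stood higher, among them those of 44.6 at FOSL2, 39.0 at ATF3 and 31.3 at FOS. Fold and q value did not run in parallel between loci. The −log10 q was 166.9 for this peak, against 48.6 for a p63 peak of fold 19.9 near JUND. At the start itself ZNF148 had a peak of fold 20.4, at 65667815 to 65668147. The window also held the most significant ZNF148 peak of the whole list, at 65625017 to 65625728, with a fold of 100.2. It lay 34.7 kb beyond the 3′ end of FOSL1, with FIBP, CTSW, EFEMP2 and MUS81 among the genes on that side in RefSeq for GRCh38.p14. These were taken by order from FOSL1, and which gene lies nearest to the peak was not determined. A further ZNF148 peak of fold 49.1 and rank 129 lay 2.2 kb beyond the 3′ end, on the side where CCDC85B is the next protein-coding gene. Upstream, 18.3 kb before the start, a p63 peak of fold 13.3 overlapped the end of a ZNF148 peak 1245 bp long with a fold of 48.8.

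FOSL2 encodes FRA2, and its locus held the p63 peak of highest fold near any of the genes. It lay 14.7 kb upstream, on chromosome 2 at 28601193 to 28601503, with a fold of 44.6 and rank 2444. A p63 peak of fold 19.4 lay next to it, 15.6 kb upstream. Each of this pair overlapped a ZNF148 peak of fold 15.2, by 187 bp and by 9 bp. Another p63 peak, of fold 35.9 and 21.7 kb beyond the 3′ end, overlapped a ZNF148 peak of fold 11.5 by 85 bp. FOSL2 therefore had 3 of its 4 p63 peaks shared with ZNF148, and p63 had the higher fold in all 3 pairs. At the start ZNF148 was weak, with a fold of 5.0 at rank 37147 of 37883, and its strongest peak of the locus, of fold 23.1, lay 2.5 kb upstream. Depth and background of the 2 libraries enter any such comparison of folds and are unknown from the lists.

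JUN encodes the founding member of the JUN family. Most of its p63 peaks were weak, the nearest 4.5 kb past the start, and a dense group of ZNF148 peaks lay at its start. The 5 p63 peaks near JUN had folds of 6.81, 7.06, 8.06, 9.03 and 16.8, of which only the last exceeded the p63 list's median of 13.2. A group of 3 lay 27.2 to 31.0 kb upstream of JUN, and 2 of these 3 overlapped ZNF148 peaks of folds 8.43 and 10.0. In the pair on chromosome 1 at 59280914 to 59281160 the p63 and ZNF148 summits lay 24 bp apart. A further p63 peak, with a fold of 7.06, lay 0.5 kb beyond the 3′ end. From 1.7 kb before the start to 2.7 kb past it lay 7 ZNF148 peaks with folds of 6.47 to 37.4. The highest, at 59249787 to 59250103, lay at the start and ranked 2432.

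JUNB encodes a JUN relative with weaker transactivation, and it was the only gene with a p63 peak shared with ZNF148 within 5 kb of its start. The p63 peak, on chromosome 19 at 12900393 to 12900796, lay 1.4 kb upstream with a fold of 18.2. Its edge overlapped by 66 bp a ZNF148 peak of fold 7.94, and the summits were 289 bp apart. ZNF148 had 15 peaks near JUNB, 6 of them within 5 kb of its span. The strongest, at 12899339 to 12899964, had a fold of 53.4 and lay 2.4 kb upstream. Peaks of fold 15.2 at the start and 36.1 just beyond the 3′ end framed the short gene. The other p63 peak, of fold 24.7, lay 41.4 kb upstream.

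JUND encodes the JUN protein known for steady rather than induced expression. Both of its p63 peaks lay upstream. The one 4.2 kb before the start, of fold 13.7, had no ZNF148 partner. The other, 10.4 kb upstream on chromosome 19 at 18403243 to 18403486, had a fold of 19.9 and overlapped a ZNF148 peak of fold 14.4, with stronger ZNF148 peaks of folds 31.9 and 33.2 to either side. Its summit lay 175 bp from the nearest ZNF148 summit. At the start ZNF148 had a fold of 42.6, at 18392665 to 18393008 with rank 2034, and a weaker peak of fold 8.66 beside it.

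ATF3 encodes a stress-induced relative that pairs with JUN proteins, and it had the longest span, 55 kb, which holds more than 1 known start. Both p63 peaks lay inside the span. The stronger, on chromosome 1 at 212769776 to 212770048, had a fold of 39.0 and rank 2539, and its summit lay 13 bp from that of a ZNF148 peak of fold 11.4. The other p63 peak had a fold of 7.72. ZNF148 had no peak within 5 kb of the 5′ end of the span, and its nearest one, of fold 16.6, lay 6.7 kb upstream. Inside the span, a ZNF148 peak of fold 28.9, at 212781397 to 212782138, lay 43.0 kb past the 5′ end, 2888 bp from the second p63 summit. Whether that ZNF148 peak or the second p63 peak lies near a start inside the span was not determined. The lack of a ZNF148 peak at the ATF3 start thus holds for the 5′ end of the span only.

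Peaks of both proteins were denser near these genes than over the chromosomes as a whole, ZNF148 more than p63. Within 50 kb of the 8 genes, p63 had 2.65 and ZNF148 10.2 peaks per 100 kb. The means over all 29500 tiles of 100 kb were 0.729 for p63 and 1.28 for ZNF148. The tiles cover each chromosome from its first to its last peak, with or without genes, so they are no measure for other genes. ZNF148 exceeded the mean of its chromosome at all 8 genes, and at 7 of them, all but ATF3, also 5 peaks per 100 kb, the 95th percentile of tiles. It ranged from 3.23 per 100 kb at ATF3 and 6.56 at FOSL2 to 14.7 at JUNB, 15.0 at FOSB and 19.4 at FOSL1. For p63 the density went from 0.962 at FOS to 3.28 at FOSL2, 3.70 at FOSL1, 3.74 at FOSB and 4.81 at JUN. FOS alone was near its chromosome's mean, 0.947. There were 3.83 ZNF148 peaks for each p63 peak near the genes, against 1.76 in the whole lists. The 3 genes on chromosome 19, FOSB, JUNB and JUND, had 4.88, against 3.38 for that chromosome.

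**Figure D2:**
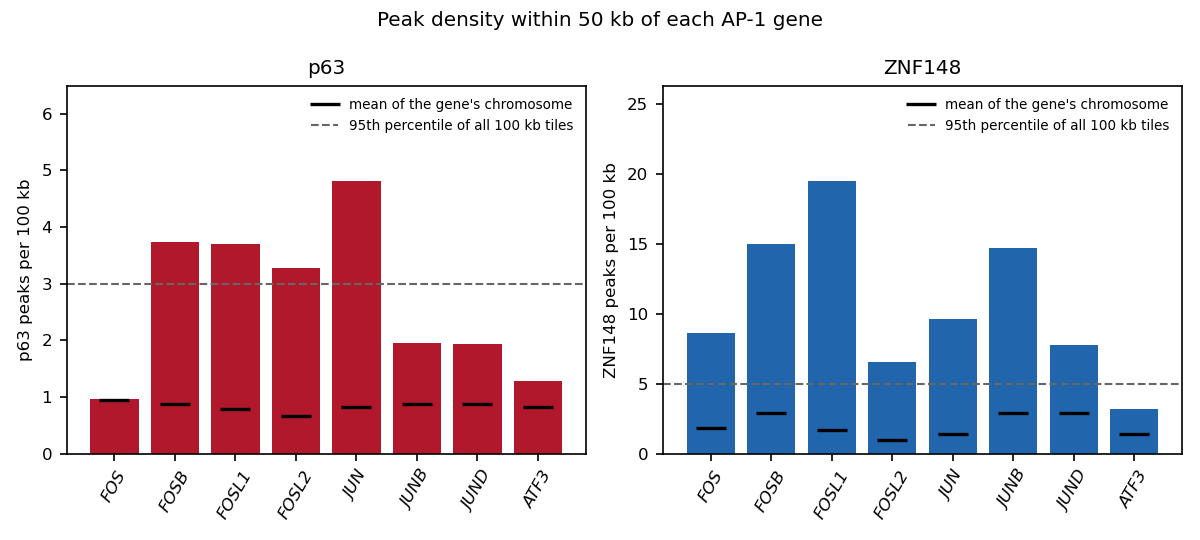
Bars give p63 (left) and ZNF148 (right) peaks per 100 kb within 50 kb of each gene, on separate y axes. The black marks are the mean of the gene's chromosome, and the dashed lines, at 3 peaks for p63 and 5 for ZNF148, the 95th percentile of all tiles. ZNF148 bars exceed the line for every gene but ATF3, p63 bars for FOSB, FOSL1, FOSL2 and JUN.

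The strength of the peaks near the AP-1 genes lay close to that of the whole lists. The p63 folds ran from 6.81 to 44.6 with a median of 17.0, against a median of 13.2 in the whole p63 list. Of the 24, 16 had a fold of 10 or more, or 66.7% (exact 95% interval 44.7 to 84.4%), against 65.1% of all p63 peaks. ZNF148 folds ran from 4.52 to 100.2 with a median of 11.2, against 9.83 in the whole ZNF148 list. A fold of 10 or more was found for 55 of 92, or 59.8% (49.0 to 69.9%), against 49.6% of all ZNF148 peaks. Among the most significant 10% of each list were 1 of the 24 p63 peaks, the one inside FOSL1, and 13 of the 92 ZNF148 peaks, or 14.1% (7.74 to 22.95%), each set against 10% by construction. These intervals reflect counting error alone, and peaks of 1 locus are neighbours rather than independent draws.

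**Figure D3:**
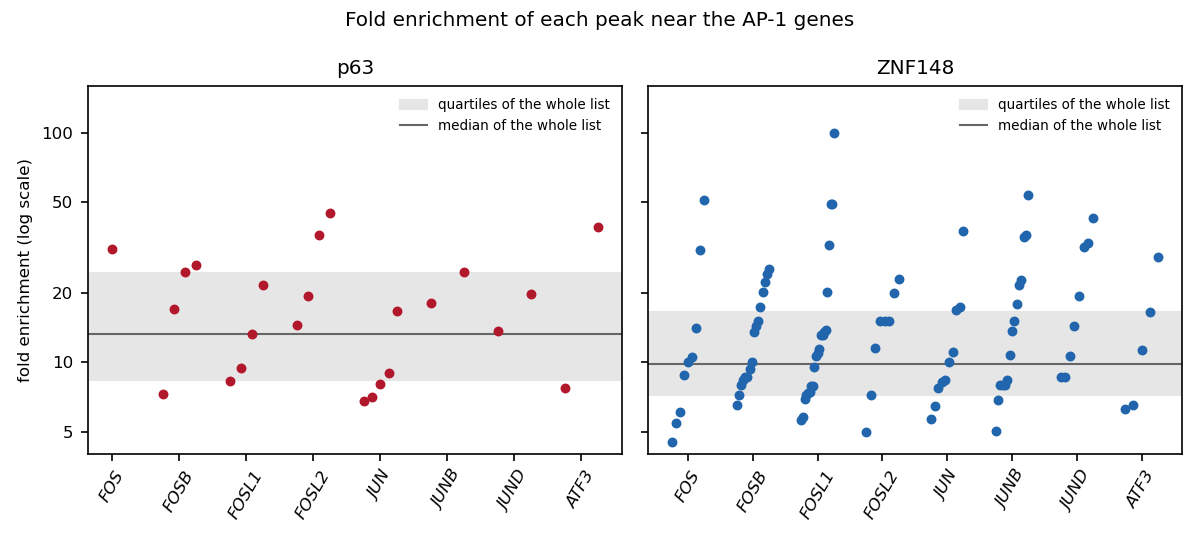
Each point is the fold enrichment of 1 peak, on a log scale, for p63 (left) and ZNF148 (right), sorted within each gene. The grey band and line are the quartiles and median of the whole list. JUN has 4 of its 5 p63 points below the p63 median of 13.2, and FOSL1 holds the highest ZNF148 point at 100.2.

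Overlap of p63 with ZNF148 near the AP-1 genes was mostly partial, with summits apart. How it stood to the whole list depended on the criterion. Of the 24 p63 peaks, 11 shared at least 1 bp with a ZNF148 peak, or 45.8% (exact 95% interval 25.6 to 67.2%), against 21.2% of all p63 peaks. When the overlap was required to reach 50% of each peak, 4 of the 24 remained, or 16.7% (4.74 to 37.4%), against 18% of all p63 peaks. With summits within 100 bp there were 3 of 24, or 12.5% (2.66 to 32.4%), against 18.3%. With a limit of 100 kb from the genes, 13 of 38 p63 peaks shared at least 1 bp with ZNF148. Of the 11, FOSL2 had 3, FOSL1 and JUN 2 each, FOSB, JUNB, JUND and ATF3 1 each and FOS 0. In the other direction, p63 overlapped 11 of the 92 ZNF148 peaks, or 12.0% (6.12 to 20.4%), against 12.1% of all ZNF148 peaks. A ZNF148 summit lay within 500 bp of 13 of the 24 p63 summits, or 54.2% (32.8 to 74.4%), against 23.4% of all. Summits within 25 bp were found at only 2 of 24, or 8.33% (1.03 to 27.0%), against 13.5% of all p63 peaks. These were the peak 31.0 kb upstream of JUN and the one inside ATF3. Among the overlapping p63 peaks the coincident ones made up 2 of 11, or 18.2% (2.28 to 51.8%), against 63.7% of all overlapping p63 peaks. The median distance from an overlapping p63 summit to the nearest ZNF148 summit was 175 bp near the AP-1 genes, with a range of 13 to 389 bp, against 15 bp in the whole list. The part of the higher ZNF148 density near these genes in the overlap was not tested, and with 24 p63 peaks the shares are imprecise.

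The overlapping peaks near the AP-1 genes had lower median folds than overlapping peaks over the whole lists. The median was 19.4 for the 11 shared p63 peaks (quartiles 11.2 to 30.4), against 26.2 for all shared p63 peaks (14.1 to 42.0). The 11 ZNF148 peaks in these pairs had a median fold of 13.8 (10.7 to 15.2), against 23.8 for all shared ZNF148 peaks (13.0 to 39.0). The overlaps were also of unlike kinds. Summits lay within 25 bp at 2 of the 11 shared p63 peaks, against 63.7% of all shared p63 peaks. For unshared peaks the medians near the genes were the higher ones. The 13 unshared p63 peaks had a median fold of 14.6, against 11.7 over the whole p63 list, and the 81 unshared ZNF148 peaks 10.8, against 9.26. The ZNF148 peaks at the starts of FOS, JUN and JUND, and the one 2.4 kb upstream of JUNB, overlapped no p63 peak.

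**Figure D4:**
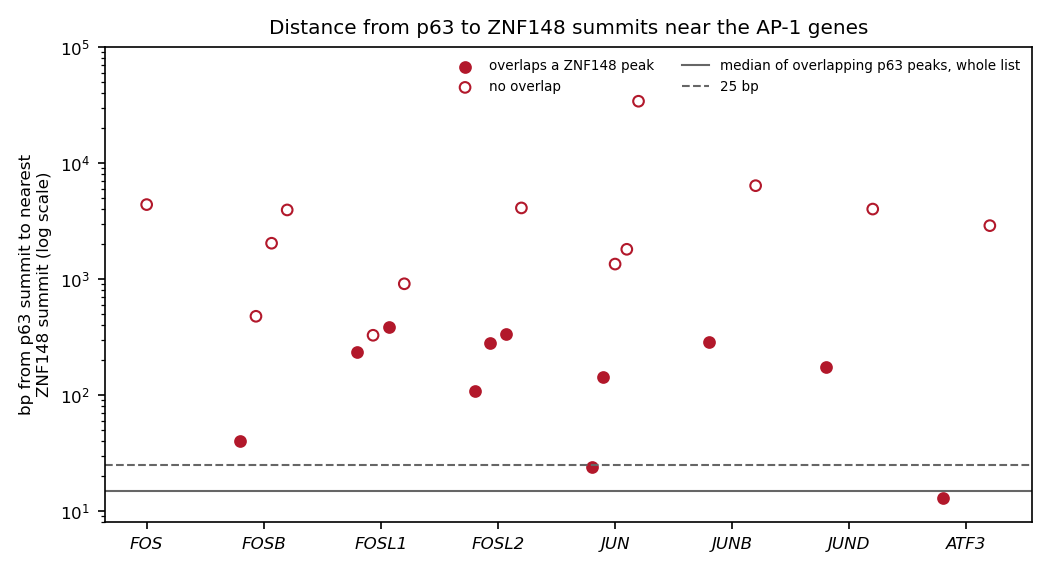
Each point is 1 p63 peak near the gene named on the x axis, and the y axis gives the bp from its summit to the nearest ZNF148 summit on a log scale; filled points overlap a ZNF148 peak. Most filled points lie between 109 and 389 bp, above the dashed line at 25 bp and the solid line at 15 bp, the median of all overlapping p63 peaks.

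By distance from the starts, ZNF148 peaks were shifted towards the starts. The share of p63 peaks exceeded that of the sequence only between 1 and 5 kb, with 4 peaks. Of the sequence in the 8 windows, 1.77% lay within 1 kb of a start, 7.07% between 1 and 5 kb, 26.5% between 5 and 20 kb and 64.6% farther away. Of the 24 p63 peaks, 0, 4, 5 and 15 fell in these classes. The 4 between 1 and 5 kb made up 16.7% and the 15 farthest 62.5%. Of the 92 ZNF148 peaks, the counts were 11, 15, 29 and 37. Those within 1 kb made up 12.0%, those between 1 and 5 kb 16.3% and the farthest 40.2%. No test was made of these differences. The 4 p63 peaks between 1 and 5 kb, at FOSL1, JUN, JUNB and JUND, had folds of 7.06 to 21.8. ZNF148 peaks within 1 kb of a start had folds of 5.0 to 51.2 with a median of 15.2. At the 50 kb limit, the outermost p63 summit included lay 43.2 kb from FOSB (fold 7.31) and the first one left out 54.5 kb from FOSL1 (fold 10.6). For ZNF148 these were 46.9 kb from ATF3 (fold 6.25) and 50.5 kb from FOSL2 (fold 4.74).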

How the data were processed

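Peak lists of 1 p63 and 1 ZNF148 ChIP library from FaDu cells were used; per the labels, the DNA came from 3 independent ChIP assays. The tools named in the submitters' processing notes are MACS2 2.2.6, Bowtie2 2.3.4.3, SAMtools 1.7, MultiQC 1.12 and FastQC 0.11.9, with build hg19. Not given in the sources used here are settings, the control library and duplicate handling. The deposited fold enrichment is the authors' ratio over local background, and the deposited −log10 q ranked peaks within a list (minimum 3.01 in the p63 list and 3.02 in the ZNF148 list). The deposited score repeats −log10 q and did not enter. Read counts and depth are unknown.

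Gene spans were given to the nearest 1 kb. Strand came from the RefSeq promoter table, for FOSL1 from its known orientation, and neighbours from RefSeq for GRCh38.p14 by order only. Members and rules were chosen with earlier results of these data known. Named were, per gene, the nearest and strongest peaks, those at the gene and overlapping pairs. BATF, BATF2, BATF3, JDP2 and the small MAF genes were not analysed here. The count of all overlapping p63 peaks, 4560, was the same with bedtools 2.31.1, and the functions were tested on simulated lists. Shares carry exact Clopper-Pearson intervals. With 1 list per antibody no test was run. Alternatives were other distance limits, stricter fold and q limits, other overlap criteria and lists of equal length. Calculations used Python 3.11.15 and scipy 1.17.1.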

Additional observations from a re-analysis of the deposited data

How the results depend on the processing

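Of 25 recomputed counts, 19 stayed within 1.5 times the reported one and 6 did not. With a limit of 25 kb in place of 50 kb, 14 p63 summits lay near the genes in place of 25. Of the p63 peaks, 7 of 14 then overlapped ZNF148, in place of 11 of 24. Summits within 25 bp were found at 1 of 14, in place of 2 of 24. The last 2 counts fell along with the number of p63 peaks searched. With 100 kb the p63 count was 39, and 13 of 38 p63 peaks overlapped ZNF148. The 11 overlaps fell to 4 under a minimum of 50% of each peak and to 3 with summits within 100 bp. With lists of equal length, 9 of 24 p63 peaks overlapped ZNF148. By construction the 50% minimum leaves out pairs that touch at their edges and pairs of very unequal length. The ZNF148 count of 98 stayed between 69 and 138. No paired analysis was possible because each antibody had 1 list. Depth is unknown, so a site outside a list may lie below its threshold.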
